A study of Homo sapiens with 8 samples.

Results

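The mitosis and G2/M genes were 54 genes taken by symbol, most of which cells transcribe late in the cell cycle and use to condense, attach, separate and divide their chromosomes. They were measured in BCPAP cells, an established line from a papillary thyroid carcinoma, 72 h after transfection with an siRNA pool against *EPB41L4A* (si*EPB41L4A*, 4 arrays) or with a non-specific siRNA (si*NS*, 4 arrays), on Clariom D Human arrays. A gene was represented by the probe set that carried its symbol alone and had the highest mean over the 8 arrays. By this rule 53 of the 54 genes were measured, among 33616 genes in all, and all 53 were tested, among 22465. *CBX5*, which encodes the heterochromatin protein HP1 alpha, was the exception, because its probe set also carries the symbol of a microRNA. The samples were whole cultures of a single cell line with a single siRNA pool per group, so loss of *EPB41L4A* and any off-target action of the pool cannot be told apart. The labels describe experiments made at 4 separate times, and give an siRNA dose of 40 uM. The treatment text of the si*NS* samples also names an siRNA against *LRRC34*, whereas their titles and source names give si*NS*. *LRRC34* averaged 5.02 with si*EPB41L4A* and 4.39 with si*NS* on the log2 scale. It exceeded the 95th percentile of the negative control probe sets on 0 of the 8 arrays, so its values cannot settle which label holds.

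*EPB41L4A* itself was lower in the si*EPB41L4A* arrays, at 6.33 ± 0.70 against 9.53 ± 0.26 with si*NS* on the log2 scale (SD, n = 4 each, limma log2 change -3.20, adjusted p = 0.000491). Among thyroid markers, *PAX8*, *NKX2-1* and *FOXE1* exceeded the 95th percentile of the negative control probe sets on all 8 arrays, while *TG*, *TSHR* and *SLC5A5* exceeded it on none. Of 4 epithelial markers, *KRT8* and *KRT18* exceeded it on all 8, *EPCAM* on 5 and *KRT19* on 2. The mean log2 value of *EPCAM* was 5.72 with si*EPB41L4A*, against 8.16 with si*NS*, and its part in the results below was not tested. Of 6 markers of other cells, *CD68*, of macrophages but also of lysosomes in general, and *COL1A1*, of fibroblasts, exceeded it on all 8, *ACTA2*, of smooth muscle, on 7, and *PTPRC*, *PECAM1* and *VWF*, of leukocytes and endothelium, on none. All values below are the log2 values made by the robust multiarray average (RMA), and a log2 change is the si*EPB41L4A* mean minus the si*NS* mean. Values reach 19.92, above 16, the most that a 16-bit scanner can record on this scale, so a step of the scaling is undescribed and a log2 change of 1 may not be a doubling of RNA.

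Cells that leave S phase activate the kinase CDK1 with B-type cyclins, dissolve the nuclear envelope and build a bipolar spindle from microtubules and motor proteins. Kinetochores attach the chromosomes to the spindle, and a checkpoint holds the anaphase-promoting complex (APC/C) inactive until every chromosome is attached, after which a contractile ring divides the cell. Transcription of these genes is kept low before G2 by a repressor assembled on the MuvB core and is raised in G2 by the same core with B-MYB and FOXM1. In thyroid tumours, as in others, the protein of *MKI67* (Ki-67) is stained as a measure of proliferation.

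Promoter sequence is printed for 5 genes that rose after the knockdown, because the MuvB core is known to bind the cell cycle genes homology region (CHR, here the letters TTTGAA), and the factor NF-Y the CCAAT box, in promoters of this kind. The sequences are from RefSeq, build GRCh38.p14, from 200 bases before to 20 bases after the transcription start, 5′ to 3′ on the strand of the gene, at chr1:154974481-154974700 (plus strand) for *CKS1B*, chr17:40417877-40418096 (minus) for *TOP2A*, chr5:163460432-163460651 (plus) for *HMMR*, chr15:59104946-59105165 (plus) for *CCNB2* and chr1:211675602-211675821 (minus) for *NEK2*. The first 4 were chosen as the genes past the threshold with the smallest adjusted p whose promoter held the hexamer TTTGAA. *NEK2* was chosen as the one with the smallest whose promoter did not. How many of the 5 hold the hexamer was thus set by the choice, which passed over *KIF2C*, with neither motif. Capitals mark each match to TTTGAA or its reverse complement TTCAAA, and to CCAAT or its reverse complement ATTGG.
CKS1B: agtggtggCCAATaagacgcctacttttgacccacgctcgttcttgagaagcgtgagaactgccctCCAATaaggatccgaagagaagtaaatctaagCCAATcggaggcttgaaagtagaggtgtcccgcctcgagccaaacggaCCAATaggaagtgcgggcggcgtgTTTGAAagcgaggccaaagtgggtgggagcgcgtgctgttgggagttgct
TOP2A: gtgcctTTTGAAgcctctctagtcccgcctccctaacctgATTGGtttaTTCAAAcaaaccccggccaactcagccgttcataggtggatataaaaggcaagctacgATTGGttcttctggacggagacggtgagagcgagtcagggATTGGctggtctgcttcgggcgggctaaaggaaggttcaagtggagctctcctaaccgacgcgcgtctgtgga
HMMR: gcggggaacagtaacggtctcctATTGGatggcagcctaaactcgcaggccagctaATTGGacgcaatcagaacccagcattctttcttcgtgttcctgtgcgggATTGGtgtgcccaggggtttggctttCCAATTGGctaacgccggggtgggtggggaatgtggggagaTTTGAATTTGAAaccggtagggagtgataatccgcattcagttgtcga
CCNB2: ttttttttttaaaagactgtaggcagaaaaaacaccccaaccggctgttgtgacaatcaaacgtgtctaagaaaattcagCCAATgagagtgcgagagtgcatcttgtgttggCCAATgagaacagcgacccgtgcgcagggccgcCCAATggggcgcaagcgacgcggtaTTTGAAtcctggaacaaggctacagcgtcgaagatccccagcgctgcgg
NEK2: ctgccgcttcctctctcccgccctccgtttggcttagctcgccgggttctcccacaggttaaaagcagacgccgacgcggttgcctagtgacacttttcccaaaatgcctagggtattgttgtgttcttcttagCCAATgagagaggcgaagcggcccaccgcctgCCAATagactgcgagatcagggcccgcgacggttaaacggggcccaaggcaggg
The hexamer of *CKS1B* began 30 bases before the start, that of *CCNB2* 29 bases before it, and the tandem copies of *HMMR* 28 and 22 bases before it, each downstream of CCAAT matches. *TOP2A* held its hexamers farther out, at 194 and 151 bases, and *NEK2* held CCAAT matches but no hexamer. In *HMMR* a pair of CCAAT matches on opposite strands overlapped. Both motifs were searched on both strands in windows from 250 bases before to 50 bases after the start, which RefSeq entries gave for 45 of the 54 genes. The hexamer was in 33 of these 45 genes (73.3%), against 18.2% of 27305 genes, and CCAAT was in 32 of the 45 (71.1%), against 39.7% of all genes. A match is a run of letters and no evidence of binding. The hexamer was in 9 of the 15 genes past the threshold with an entry and in 24 of 29 that were not past it, and the median log2 change was 1.33 with the hexamer (33 genes) and 1.51 without it (11 genes).

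After the knockdown, 15 of the 53 genes rose and none fell (limma, adjusted p under 0.05 over 66831 probe sets). Of all tested probe sets, 1.23% rose and 1.38% fell by the same test, 824 and 923 probe sets. After a further quantile normalization these were 1041 and 759. Counted like the members, by 1 probe set per gene, 573 of 22465 genes rose and 664 fell. The median log2 change of the 53 genes was 1.34 (range -0.56 to 2.84), against -0.05 for all tested probe sets. A log2 change above 0 was found for 49 of the 53 genes, against 44.0% of all probe sets, and before adjustment 40 genes were higher and 0 lower at a p under 0.05. In 26 of the 53 genes every si*EPB41L4A* array was above every si*NS* array, against 3.75% of all probe sets, and in none was it below. In RNA from whole cultures, more cells in G2 and mitosis and more of these transcripts per cell cannot be told apart. The count of 15 depended on the fit and on single arrays. With a block for replicate number it was 36, when 1436 of all tested probe sets rose. Without the block it was 8 without si*EPB41L4A* replicate 2, 28 without si*NS* replicate 4 and 9 without si*NS* replicate 3. For any other single array left out it was 10 to 18.

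**Figure D1:**
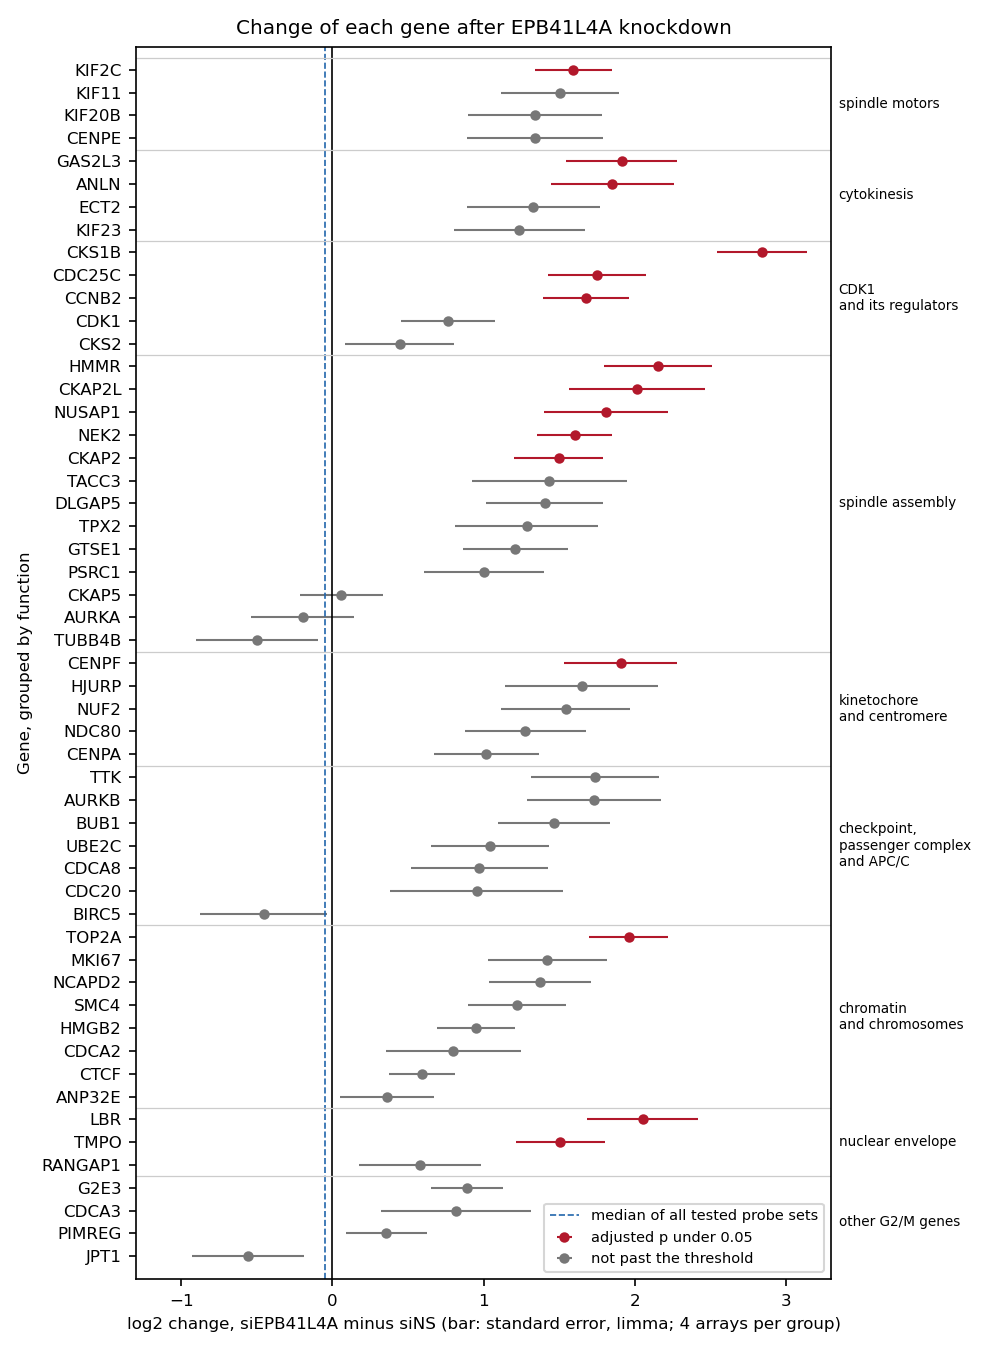
Log2 change of each of the 53 genes (x axis, si*EPB41L4A* minus si*NS*, bars are standard errors from limma, 4 arrays per group) by functional class, with the 15 genes past an adjusted p of 0.05 in red. The points centre near 1.34, right of the median of all tested probe sets (-0.05, dashed), and *AURKA*, *BIRC5*, *TUBB4B* and *JPT1* lie below 0.

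The regulators of CDK1 held the largest single change. *CKS1B*, a small CDK-binding protein that is also the cofactor by which the ubiquitin ligase SCF-SKP2 recognises the CDK inhibitor p27, had log2 values of 10.96, 10.16, 10.58 and 11.58 with si*EPB41L4A* (replicates 1 to 4), against 8.15, 8.15, 7.53 and 8.09 with si*NS*. The lowest si*EPB41L4A* array was 2.02 above the highest si*NS* array, and the log2 change was 2.84 (SE 0.30, limma adjusted p = 0.000565). *CCNB2*, which encodes a B-type cyclin, had 12.64, 12.23, 12.11 and 12.88 with si*EPB41L4A*, against 10.49, 11.05, 10.26 and 11.35 with si*NS* (log2 change 1.68, SE 0.28, limma adjusted p = 0.00898). *CDC25C*, the phosphatase that removes inhibitory phosphates from CDK1, had 10.41, 10.41, 9.55 and 11.00 with si*EPB41L4A*, against 8.42, 8.92, 8.002 and 9.03 with si*NS* (log2 change 1.75, SE 0.32, limma adjusted p = 0.0144). The groups did not overlap in any of these 3 genes. *CKS1B* and *CCNB2* were past the threshold without each of the 8 arrays in turn, and *CDC25C* was not without si*EPB41L4A* replicate 2. Of the other members of this class of 5, *CDK1* had a log2 change of 0.77 (limma adjusted p = 0.279), with its highest si*NS* array at 11.56 and its lowest si*EPB41L4A* array at 11.38. *CKS2*, the paralog of *CKS1B*, had a log2 change of 0.44 (limma adjusted p = 0.667).

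The difference between the paralogs is described because it stood out among the values, along with that between the Aurora kinases. For that reason no p-value is given for either. Within an array, *CKS1B* minus *CKS2* was -0.68 ± 0.34 with si*EPB41L4A* and -3.07 ± 0.46 with si*NS* (SD, n = 4 each). The offset between probe sets has no meaning of its own, but its shift between the groups was 2.40, and the arrays did not overlap. *AURKB*, the kinase of the chromosomal passenger complex, minus *AURKA*, the kinase of centrosomes and spindle poles, was -3.74 ± 0.60 with si*EPB41L4A* and -5.67 ± 0.49 with si*NS* (SD, n = 4 each). Its shift was 1.93, again without overlap. Without each array in turn the shifts were 2.22 to 2.59 for the CKS genes and 1.71 to 2.22 for the Aurora kinases. *AURKA* itself had a log2 change of -0.20 (limma adjusted p = 0.873), a sign that turned without si*NS* replicate 4.

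**Figure D2:**
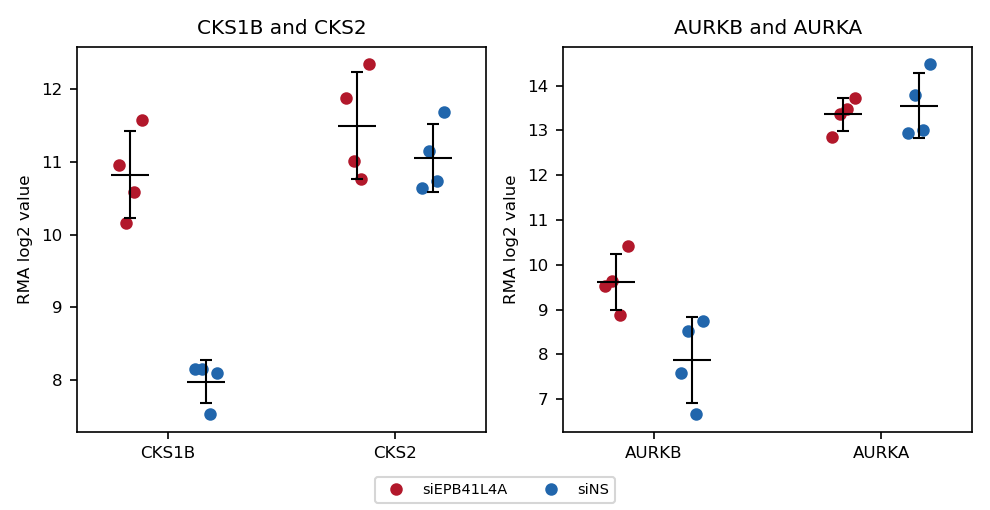
RMA log2 values (y axis) of *CKS1B* and *CKS2* (left panel) and of *AURKB* and *AURKA* (right panel), points being arrays and black marks the mean with its SD (n = 4 per group), si*EPB41L4A* in red left of si*NS* in blue. The groups separate for *CKS1B* and *AURKB* and overlap for *CKS2* and *AURKA*.

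Genes of spindle assembly were the largest class, with 5 of 13 higher and a median log2 change of 1.41. *HMMR*, a microtubule-associated protein needed to assemble the spindle, had 9.505, 10.18, 9.09 and 9.82 with si*EPB41L4A*, against 7.37, 7.40, 6.71 and 8.49 with si*NS* (log2 change 2.16, SE 0.36, limma adjusted p = 0.00806). *NEK2*, the kinase that separates the centrosomes, had 11.79, 11.62, 11.85 and 11.79 with si*EPB41L4A*, against 9.85, 10.53, 9.68 and 10.58 with si*NS* (log2 change 1.60, SE 0.25, limma adjusted p = 0.00542). The 4 si*EPB41L4A* arrays of *NEK2* had an SD of 0.10, and those of si*NS* one of 0.46. *CKAP2L*, a spindle protein, had 12.07, 12.67, 12.98 and 13.58 with si*EPB41L4A*, against 10.26, 11.46, 9.71 and 11.81 with si*NS* (log2 change 2.02, SE 0.45, limma adjusted p = 0.0365). *NUSAP1*, which bundles spindle microtubules near chromosomes, had 12.06, 12.52, 12.44 and 13.31 with si*EPB41L4A*, against 9.88, 11.47, 10.13 and 11.62 with si*NS* (log2 change 1.81, SE 0.41, limma adjusted p = 0.0376). In both, si*NS* replicates 2 and 4 were the higher of the si*NS* arrays. *CKAP2*, a spindle pole protein, had 11.56, 12.10, 11.37 and 12.16 with si*EPB41L4A*, against 10.53, 10.17, 9.63 and 10.86 with si*NS* (log2 change 1.497, SE 0.30, limma adjusted p = 0.0197). All 5 were without overlap. *HMMR* and *NEK2* kept an adjusted p under 0.05 without each array in turn. *CKAP2* lost it when si*EPB41L4A* replicate 2 or 4 was left out, or replicate 2 or 3 of si*NS*. *CKAP2L* and *NUSAP1* lost it when si*EPB41L4A* replicate 2, 3 or 4 was left out, or replicate 1 or 3 of si*NS*.

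The remaining 8 genes of spindle assembly differed widely. *TACC3*, which stabilises kinetochore fibres, had the largest of their log2 changes, 1.44 (limma adjusted p = 0.204), and its si*NS* arrays ranged from 8.42 in replicate 3 to 11.14 in replicate 4. *DLGAP5*, *TPX2*, *GTSE1* and *PSRC1*, which encode microtubule-binding proteins, had log2 changes of 1.004 to 1.41. *GTSE1* and *PSRC1* were under the 95th percentile of the negative controls on all 8 arrays. *TUBB4B*, a beta-tubulin with near-identical copies that its probes may not separate, had a log2 change of -0.50 (limma adjusted p = 0.665). The value for *CKAP5*, the microtubule polymerase ch-TOG, was 0.06 (limma adjusted p = 0.959), its sign turned in some alternatives, and it comes from a minor probe set above the 95th percentile of the controls on 3 of 8 arrays, because the main one also carries the symbol of a small nucleolar RNA.

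The 4 genes placed among the spindle motors lay in a narrow band, whereas 9 other mitotic kinesins ranged from 0.39 to 2.14. All 4 had log2 changes between 1.34 and 1.59 and an unadjusted p under 0.05, and 1 of them rose by the adjusted test. That gene, *KIF2C*, which encodes a kinesin that removes tubulin from microtubule ends at kinetochores, had 13.07, 12.999, 12.83 and 13.45 with si*EPB41L4A*, against 11.45, 11.78, 10.92 and 11.84 with si*NS* (log2 change 1.59, SE 0.25, limma adjusted p = 0.00639). The groups were 0.99 apart at their nearest arrays, and the call held without each array in turn. Another probe set of *KIF2C*, above the 95th percentile of the controls on 5 of 8 arrays, averaged 5.87 ± 0.67 with si*EPB41L4A* and 6.08 ± 0.50 with si*NS* (SD, n = 4 each), and the mean of both probe sets had a log2 change of 0.69 that did not pass the test. *KIF11*, the kinesin that pushes the spindle poles apart, had 11.86, 11.86, 11.54 and 12.78 with si*EPB41L4A*, against 10.45, 10.84, 9.39 and 11.32 with si*NS* (log2 change 1.51, SE 0.39, limma adjusted p = 0.0676). Its arrays did not overlap either. *CENPE*, the kinetochore kinesin that carries chromosomes to the metaphase plate, had the smallest log2 change of the class, 1.34 (limma adjusted p = 0.169). The cytokinesis kinesin *KIF20B* had 1.34 too.

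At the kinetochore and centromere, 1 of 5 genes rose, and all 5 had a positive log2 change and a p under 0.05 before adjustment. *CENPF*, a large protein that joins the kinetochore in late G2, had 13.38, 13.71, 13.20 and 14.11 with si*EPB41L4A*, against 11.67, 12.35, 10.52 and 12.23 with si*NS* (log2 change 1.91, SE 0.37, limma adjusted p = 0.0191). Its nearest arrays were 0.85 apart, and it was not past the threshold when si*EPB41L4A* replicate 2 or 4 was left out, or replicate 1 of si*NS*. *HJURP*, the chaperone that places the centromeric histone, had the largest of the other log2 changes, 1.65, with an SE of 0.51 (limma adjusted p = 0.126). *CENPA*, the centromeric histone H3 variant itself, had the smallest, 1.02 (limma adjusted p = 0.179), near the controls on these arrays and above their 95th percentile on 4 of 8. *NDC80* and *NUF2*, partners in the complex that grips microtubules, had 1.28 and 1.54.

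No gene of the spindle checkpoint, the chromosomal passenger complex and the APC/C passed the adjusted test, although 4 of 7 had an unadjusted p under 0.05. With a block for replicate number 5 of the 7 passed it, when 1436 of all tested probe sets rose. Without the block *TTK*, the kinase that starts checkpoint signalling, was closest. It had 13.71, 14.50, 13.87 and 14.75 with si*EPB41L4A*, against 12.25, 12.82, 11.27 and 13.56 with si*NS*, without overlap (log2 change 1.73, SE 0.42, limma adjusted p = 0.0531). *BUB1*, a checkpoint kinase of the kinetochore, and *AURKB* were also without overlap, with log2 changes of 1.47 and 1.73 (limma adjusted p = 0.0605 and 0.0636). The APC/C activator *CDC20*, with 0.95, the APC/C partner enzyme *UBE2C*, with 1.04, and the passenger protein *CDCA8*, with 0.97, overlapped between the groups. In each of these 3 genes si*NS* replicate 4 was above the lowest si*EPB41L4A* array. *BIRC5*, which encodes survivin, the partner of *CDCA8* in the passenger complex, had 5.32, 5.56, 6.14 and 6.59 with si*EPB41L4A*, against 5.92, 6.44, 5.48 and 7.59 with si*NS* (log2 change -0.45, limma adjusted p = 0.720). Its values were above the 95th percentile of the controls on 4 of 8 arrays.

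Among genes of chromatin and chromosomes, 1 of 8 rose. *TOP2A*, the topoisomerase that untangles sister chromatids, had 15.66, 15.80, 15.71 and 15.56 with si*EPB41L4A*, against 13.67, 14.07, 13.01 and 14.14 with si*NS* (log2 change 1.96, SE 0.26, limma adjusted p = 0.00246). The si*EPB41L4A* arrays had an SD of 0.10, those of si*NS* 0.52, and the call held without each array in turn. *MKI67*, the proliferation marker Ki-67, had the largest of the other log2 changes, 1.42 (limma adjusted p = 0.0888), with its highest si*NS* array 0.22 above its lowest si*EPB41L4A* array. The condensin subunits *NCAPD2* and *SMC4* had 1.37 and 1.22 (limma adjusted p = 0.0563 and 0.0729), and the DNA-bending protein *HMGB2* had 0.95. *ANP32E*, a histone chaperone, had the smallest, 0.36 (limma adjusted p = 0.694). *CTCF*, an insulator protein used throughout the cell cycle, had 0.59 with no overlap between the groups, and *CDCA2*, a phosphatase adaptor on chromosomes, had 0.80.

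In cytokinesis, 2 of 4 genes rose. *GAS2L3*, which links actin and microtubules, had 11.38, 12.59, 12.62 and 12.70 with si*EPB41L4A*, against 9.62, 10.67, 10.21 and 11.14 with si*NS* (log2 change 1.92, SE 0.37, limma adjusted p = 0.0171). *ANLN*, the scaffold of the contractile ring, had 14.87, 15.30, 14.79 and 15.98 with si*EPB41L4A*, against 13.37, 13.91, 12.14 and 14.11 with si*NS* (log2 change 1.85, SE 0.41, limma adjusted p = 0.0344). Neither gene overlapped between the groups. *GAS2L3* was not past the threshold when si*EPB41L4A* replicate 2 or 3 was left out, or replicate 3 of si*NS*. Of the 8 fits that left out an array, *ANLN* passed it in those without si*EPB41L4A* replicate 1 and without replicate 4 of si*NS*. Another probe set of *ANLN*, above the 95th percentile of the controls on no array, had a log2 change of 0.18, and the mean of both probe sets had 1.01, which did not pass the test. *ECT2*, the exchange factor that activates RhoA, had a log2 change of 1.33 (limma adjusted p = 0.162), and *KIF23*, the motor of centralspindlin, had 1.24 (limma adjusted p = 0.191).

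Of the 3 nuclear envelope genes, 2 rose. *LBR*, the lamin B receptor, had 11.24, 11.04, 11.12 and 12.09 with si*EPB41L4A*, against 8.90, 9.39, 8.64 and 10.36 with si*NS* (log2 change 2.05, SE 0.37, limma adjusted p = 0.0119). *TMPO*, which encodes the lamina-associated LAP2 proteins, had 11.73, 11.75, 11.57 and 12.85 with si*EPB41L4A*, against 10.45, 10.47, 10.09 and 10.84 with si*NS* (log2 change 1.51, SE 0.30, limma adjusted p = 0.0193). Replicate 4 was the highest array of both groups in both genes, and the groups did not overlap. *LBR* was past the threshold without each array in turn, and *TMPO* was not without si*NS* replicate 1, 2 or 3. *RANGAP1*, the GTPase activator of Ran, had 0.58 (limma adjusted p = 0.601). None of the 4 genes outside these classes passed the test. The ubiquitin ligase *G2E3* had the largest log2 change of those above 0, 0.89, without overlap (limma adjusted p = 0.0742), and *PIMREG*, under the 95th percentile of the controls on all arrays, had the smallest, 0.36 (limma adjusted p = 0.634). *CDCA3* had 0.82. *JPT1* had 13.36, 12.91, 12.47 and 13.84 with si*EPB41L4A*, against 13.56, 13.37, 13.17 and 14.72 with si*NS* (log2 change -0.56, limma adjusted p = 0.572), the lowest change of the 53.

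The genes varied together from array to array within each group. Their mean log2 value was 11.00, 11.22, 10.94 and 11.89 in si*EPB41L4A* replicates 1 to 4, against 9.71, 10.35, 9.35 and 10.85 in si*NS* replicates 1 to 4. Replicate 4 of si*EPB41L4A* was above its group mean in 52 of the 53 genes and the highest of its group in 48, and replicate 4 of si*NS* was above its group mean in 52 and the highest in 45. Replicate 3 of si*NS* was the lowest of its group in 43. Over all tested probe sets the shares above the group mean were 50.3% on si*EPB41L4A* replicate 4 and 47.7% on si*NS* replicate 4. Of the 27 genes whose groups overlapped, the highest si*NS* array was replicate 4 in 24. Without that array 39 of the 53 genes did not overlap, against 26 with it. It was left out because it was the highest for these genes, so a larger count was built in. The share over all tested probe sets was then 5.6%, but that array was not high over them, so the share is no matching background. What set the level of these arrays was not tested.

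**Figure D3:**
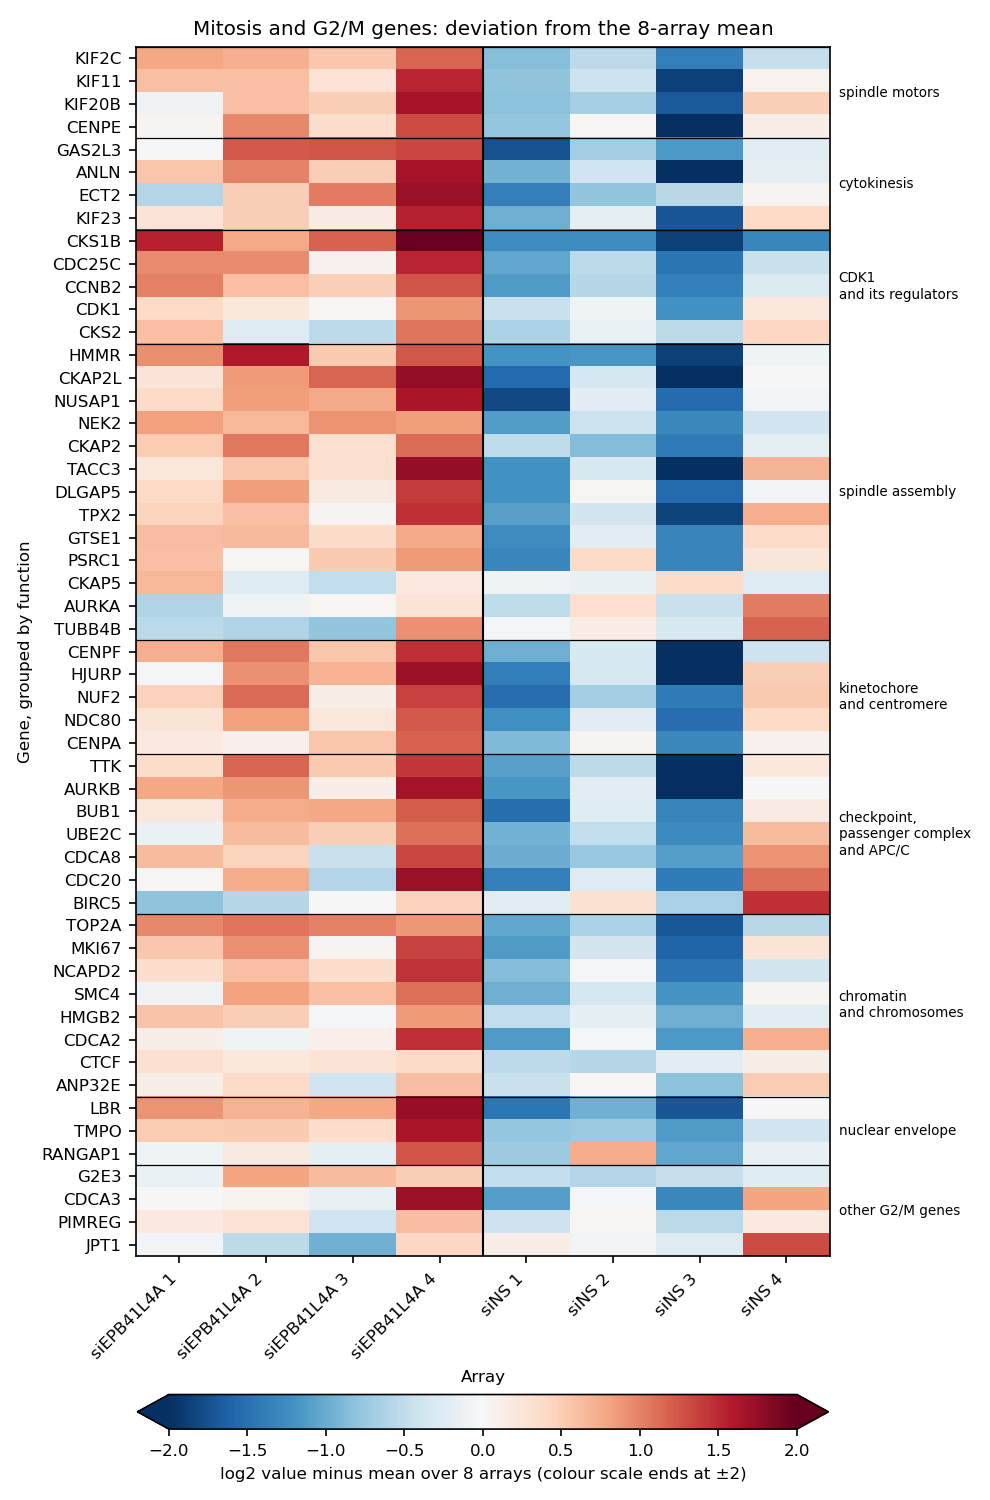
Log2 value of each of the 53 genes (rows) on each array (columns, si*EPB41L4A* left of si*NS*) minus its mean over the 8 arrays, on a colour scale that ends at ±2. Replicate 4 is the reddest column of each group, si*NS* replicate 3 is the bluest, and *CKAP5*, *AURKA*, *TUBB4B*, *BIRC5* and *JPT1* lack the contrast between the groups.

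Deviations from the group means were correlated over the 8 arrays to describe this shared variation. The median Pearson correlation over the 1378 pairs of genes was 0.783, and 1323 pairs were above 0. All pairs share the same 8 arrays, so no test was made. The correlation with the median of the other genes was over 0.8 for 39 of the 53 genes. It was lowest for *CKAP5* (-0.25), *G2E3* (0.24) and *CTCF* (0.42). Among genes that rose, *CKS1B* had the lowest, 0.59, followed by *GAS2L3* with 0.65 and *TOP2A* with 0.68. The within-group SD had a median of 0.657 over the 53 genes, against 0.373 over all tested probe sets. It was 0.357 once each array's median of the 53 log2 values was subtracted, and it was smaller in 48 of the 53 genes. Each gene is part of the median subtracted, so some of this fall was built in. No other set of genes was given the same correlation or subtraction.

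**Figure D4:**
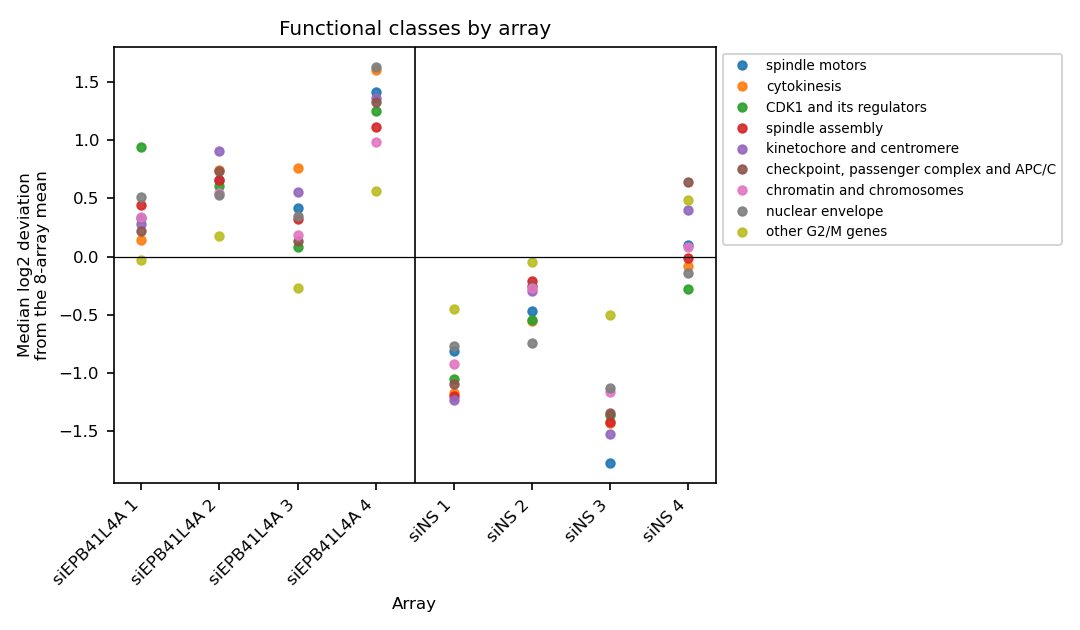
Median over the genes of each functional class of the log2 deviation from the 8-array mean (y axis), by array (x axis, si*EPB41L4A* left of si*NS*). Class medians run from 1.63 for the nuclear envelope on si*EPB41L4A* replicate 4 to -1.77 for the spindle motors on si*NS* replicate 3.

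The 53 genes were set beside 9 lists of 152 other genes of the same processes. Of these, 143 were tested, 19 rose, 1 fell and 103 had a log2 change above 0, with a median of 0.63. Over all tested probe sets 1.23% rose, 1.38% fell and 44.0% were above 0. Of 22465 genes counted by 1 probe set each, as in these lists, 573 rose and 664 fell. Each list below is to be read beside these shares. Of the 20 past the threshold, 7 were past it without each of the 8 arrays in turn. These were *MASTL*, *WEE1*, *KIF14*, *SGO1*, *ASPM*, *LIN54* and *E2F5*. Among 18 other mitotic cyclins, kinases and phosphatases 6 rose, with a median log2 change of 0.71. They were *MASTL*, which restrains a phosphatase opposed to CDK1 (2.02, limma adjusted p = 0.000565), *WEE1*, which inhibits CDK1 (1.85, 0.00387), the mitotic kinase *PLK1* (2.06, 0.0198), the cyclin *CCNA2* (1.74, 0.0265), and *PLK4* and *CCNB1*. *MASTL* had 8.81, 9.01, 9.21 and 9.02 with si*EPB41L4A*, against 6.99, 7.37, 6.81 and 6.81 with si*NS*, and replicate 4 was not the highest of either group. Of 9 other mitotic kinesins 3 rose, *KIF14*, *KIF15* and *KIF18A*, by 1.96, 2.14 and 2.11, and the median was 1.40. Of the 8 fits that left out an array, *KIF15* passed the threshold in 2 and *KIF18A* in 1. The value of *KIF15* comes from the highest of 8 probe sets that carry its symbol alone.

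Of 27 other kinetochore and centromere genes 1 rose, the microtubule-binding scaffold *KNL1* (1.19), and the median was 0.94. Among 18 condensin and cohesin genes 2 rose, *SGO1* (2.63, limma adjusted p = 0.00884) and *SGO2* (1.76, 0.0172), the shugoshins that protect cohesin at centromeres, with a median of 0.84. Of 11 other cytokinesis genes 2 rose, the central spindle proteins *PRC1* (1.87) and *RACGAP1* (2.22), the partner of *KIF23*, with a median of 0.30. Of 14 other spindle and centrosome genes *ASPM*, a spindle pole protein, rose (2.18), and the median was 0.42. None of 10 other spindle checkpoint genes passed the limma test at an adjusted p under 0.05, where a p under 0.05 before adjustment was reached by 4 that were higher and 1 that was lower, and the median was 0.69. Of 19 APC/C subunits and substrates the subunit *ANAPC1* rose (1.499), and the median was -0.09. Of 41 S phase genes 1 rose, *UBR7* (1.19), a ubiquitin ligase, against 573 of 22465 genes and 1.23% of all tested probe sets. With a block for replicate number 11 of the 41 passed, when 1436 of all tested probe sets rose. A log2 change above 0 was found for 33, against 44.0% of all probe sets, with a median of 0.53. In either direction the block called 3176 of 66831 probe sets. It called 12 of 27 kinetochore and centromere genes, 8 of 18 condensin and cohesin genes and 6 of 9 kinesins. For cyclins, kinases and phosphatases it called 6 of 18, for checkpoint genes 4 of 10 and for cytokinesis genes 3 of 11. Spindle and centrosome genes had 3 of 14, APC/C genes 3 of 19 and transcriptional regulators 6 of 17.

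Among 17 transcriptional regulators of G2/M genes 3 rose and 1 fell. The median log2 change was 0.07, with 9 above 0 and 8 below. The MuvB subunits *LIN9* (0.98), *LIN37* (-0.92), *LIN52* (0.27) and *RBBP4* (-0.88) were not past the threshold, nor was *MYBL2* (-0.06, SE 0.66), which encodes B-MYB. *MYBL2* was above the 95th percentile of the negative controls on 3 of 8 arrays. Its SD was 1.39 with si*EPB41L4A* and 1.18 with si*NS*, so its value says little about a change in either direction. *FOXM1* had 12.37, 12.69, 12.04 and 13.58 with si*EPB41L4A*, against 10.05, 10.70, 9.69 and 11.99 with si*NS* (log2 change 2.06, SE 0.46, limma adjusted p = 0.0370), with 0.04 between the nearest arrays. It passed the threshold in 1 of the 8 fits that left out an array. *LIN54*, the MuvB subunit that reads the CHR, had 8.07, 8.80, 7.96 and 8.66 with si*EPB41L4A*, against 6.36, 7.27, 6.53 and 7.04 with si*NS* (log2 change 1.57, SE 0.28, limma adjusted p = 0.0116). *E2F5*, an E2F factor of the MuvB repressor, rose by 1.40. *CDKN1A*, the CDK inhibitor p21, had 10.45, 9.95, 10.35 and 9.12 with si*EPB41L4A*, against 11.47, 11.61, 12.68 and 10.81 with si*NS* (log2 change -1.68, SE 0.39, limma adjusted p = 0.0437). Its lowest array was replicate 4 in both groups, the array on which the mean of the 53 genes was highest. *CDKN1A* passed the threshold in 2 of the 8 fits that left out an array.

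**Figure D5:**
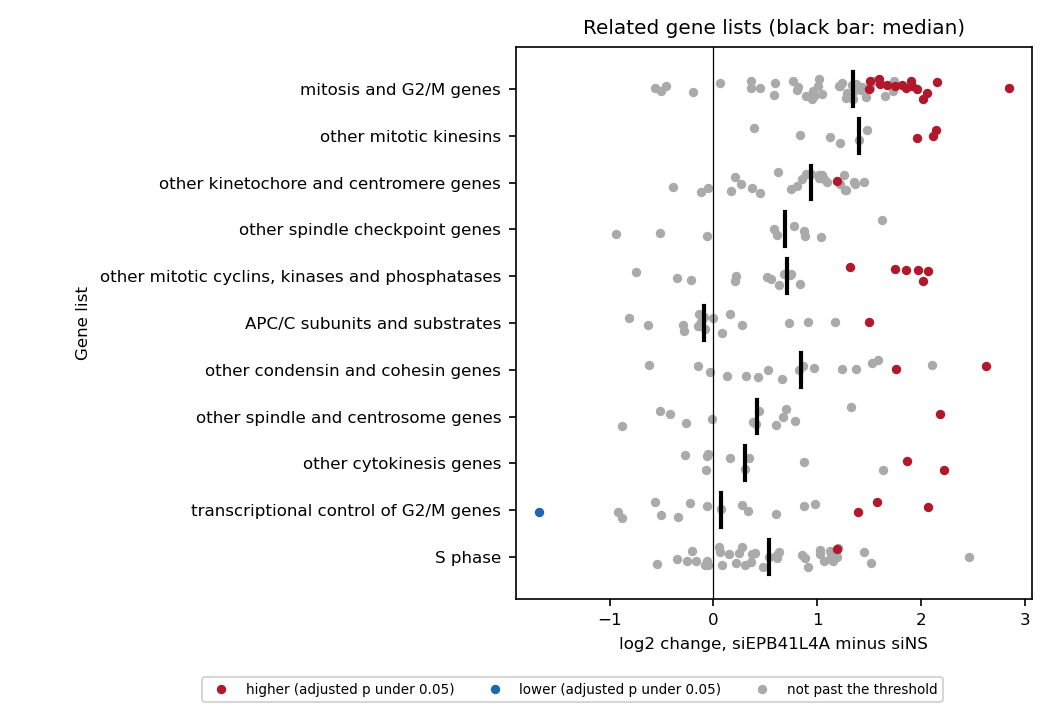
Log2 changes (x axis, si*EPB41L4A* minus si*NS*) of the 53 mitosis and G2/M genes (top) and of the tested genes of 10 related lists, each point a gene and each black bar a median, red for genes past an adjusted p of 0.05 and higher, blue for lower. Medians run from 1.40 for other mitotic kinesins to -0.09 for APC/C subunits and substrates, and *CDKN1A* is the blue point.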

How the data were processed

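RNA from 8 BCPAP cultures was hybridized by the authors to Clariom D Human arrays. The log2 values were deposited by the authors, 1 for each probe set on each array, and came from RMA in Affymetrix Expression Console per the submitters' processing notes. The build is not given in the sources used here. Array coordinates are therefore not printed. Array medians were 3.72 to 3.84, and negative control means 4.05 to 4.29. The number of arrays limits the precision, and read depth does not apply.

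No further normalization was made. Control probe sets were left out, and 66831 of 135750 others were tested, those exceeding the median of an array on 4 or more of the 8 arrays. The groups were fitted without a block (lmFit and eBayes, limma 3.58.1, R 4.3.3), and p-values were adjusted by Benjamini-Hochberg over the 66831. The step was tested on simulated data. Gene names came from probe sets with 1 symbol in the platform annotation. The members, functional classes, related lists and tests were chosen with earlier results of these data known. By the naming rule, every called gene is given in full, with the uncalled gene of the largest and the smallest change in each class and up to 4 called genes per related list. Other genes were named in addition, after their values were seen. Protein sequences were not used here.

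Both groups carry replicate numbers 1 to 4, and the sources do not link a number to an experiment. Same-numbered arrays had correlations of 0.228, 0.0746, 0.201 and 0.385 between their deviations from the group mean. Since the replicate 2 value is under 0.1, the arrays were not treated as pairs. Each si*EPB41L4A* array still correlated best with the si*NS* array of its own number. A fit with a block for replicate number is therefore given as an alternative. If same-numbered arrays share an experiment, the fit without a block counts the spread between experiments as error. That fit called 15 of the 53 genes, against 36 with the block. The labels give separate times for the replicates and say nothing more of their independence, so p-values measure the spread between these arrays. The alternatives were other filters (none, or the 75th percentile), the block for replicate number, another quantile normalization, median centring, a prior variance with a trend, Student's t-test, weights for arrays, averaging the probe sets of a gene, an unadjusted p under 0.0001 with a fold over 2, leaving out each array and, added after the values were seen, dropping the 2 arrays that share a replicate number.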

Additional observations from a re-analysis of the deposited data

Results flagged for a closer look

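Of 106 groups of 4 arrays, 1 group per gene and siRNA, 6 had an array far from the other 3 (by Dixon's test at its 95% critical value), where chance gives about 1 in 20 groups. *GAS2L3* was at 11.376 on si*EPB41L4A* replicate 1, and at 12.592 to 12.704 on the others of that group. *CKS1B* was at 7.529 on si*NS* replicate 3, and at 8.0922 to 8.1496 on the others. The other 4 were high on si*EPB41L4A* replicate 4, the array on which 52 of the 53 genes exceeded their group mean. *TUBB4B* was at 16.495 there and at 14.788 to 15.044 on the others, *CDCA2* at 10.206 and at 8.656 to 8.8693, *TMPO* at 12.849 and at 11.572 to 11.748, and *CDCA3* at 7.647 and at 5.7758 to 5.9878.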

How the results depend on the processing

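No member was called lower under any of the 22 alternatives. The count of 15 called higher was 36 with a replicate block, which held all 15 and 21 more, 1 by Student's t-test (*CKS1B*), 6 at an unadjusted p under 0.0001 with a fold over 2, and 8 to 28 without each array in turn. The replicate block called 5 of the 7 checkpoint, passenger complex and APC/C genes, where the fit without it called 0, and 11 of the 41 S phase genes, where that fit called 1. Without both arrays of replicate 1, 2 or 3 it was 5, 4 or 7, and 16 without both of replicate 4. Fewer arrays were fitted in those settings. In the other alternatives it was 12 to 21, and the median log2 change was 1.01 to 1.62 in all those where it was recomputed. Over all probe sets, 1747 calls became 3176 with the replicate block (every siEPB41L4A array correlated best with the siNS array of its own number, as a hint from the data), 312 by Student's t-test, 589 at the unadjusted threshold, 797 to 1628 without each array, and 886, 394, 593 or 1126 without both arrays of replicate 1, 2, 3 or 4. The causes were not tested. The log2 change of CKAP5 was 0.06 and became -0.029 with array weights, -0.17 to 0.37 without both arrays of a replicate number (-0.07 for replicate 4) and -0.15 to 0.23 without single arrays. The log2 change of AURKA was -0.20, 0.11 without siNS replicate 4 and -0.43 without both arrays of replicate 3. Neither gene was called. Signal near the negative controls limits PSRC1, GTSE1, PIMREG, CDCA3, CKAP5, CENPA and BIRC5.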
